A study of Mus musculus with 3 samples.

Results

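The peaks described here are the 5-methylcytosine (5mC) peaks of mouse cardiomyocyte DNA that lie nearest to the centromeres of the autosomes. They are all peaks on chr1 to chr19 whose midpoint lies from 3000000 to 8000000 bp, which is the first 5 Mb of assembled sequence on each chromosome of build mm10. There were 9628 such peaks among 297993, of which 4293 of 135886 came from the Sham library and 5335 of 162107 from the TAC library. The choice used position alone, and no autosomal peak had a midpoint below 3000000 bp. On chr17 the first peak of each library started just below that bound, and on the other autosomes the first peak started between 2.48 and 203.9 kb into the assembled sequence in Sham and between 2.72 and 171.9 kb in TAC.

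Mouse chromosomes carry the centromere at one end, and the repeats of the centromere itself, the minor and major satellites, are largely missing from the assembly. The chromatin around them is constitutive heterochromatin, which is rich in DNA methylation and in histone H3 lysine 9 methylation. The assembled sequence that follows holds ordinary genes next to segmental duplications and repeats, so the peaks describe the flank of the pericentromere and not the satellites. In methylated DNA immunoprecipitation (MeDIP), an antibody against 5mC pulls down methylated fragments, and a peak marks a stretch with more pulled-down fragments than the input DNA. A peak is not a methylation level, since the yield also follows how many CpG dinucleotides a fragment holds.

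Both libraries were made from isolated cardiomyocytes of male C57Bl6/J mice aged 8 weeks. The Sham group had the control operation, and the TAC group had transverse aortic constriction, which overloads the left ventricle with pressure, for 1 week per the series title. Each group is 1 library, the remaining sample, input DNA, entered the peak calling only, and the sources used here do not say whether a library pooled several mice. No genetic change is named in the labels, and genomic DNA carries no expression markers by which the cell type could be checked. With 1 library per group the spread between animals is unknown, so no test was made, and every interval below is an exact 95% interval that covers counting error only and treats neighbouring peaks as independent. The TAC library was the deeper, with 1.16 times as many tags, and it had a larger share of its tags in peaks (34.7% against 29.9%). The TAC to Sham ratio of peak numbers was above 1 across the genome, so ratios are set beside the rest of the chromosomes throughout. The part of depth in it was not settled: at a nearly equal threshold scaled for depth, the rest of the autosomes still gave 1.08 (1.07 to 1.09).

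The promoters below show what kind of sequence the peaks covered at gene starts near the centromeres. RefSeq (GRCm38.p6, the patch release of mm10) gave promoters of 300 bases, 250 before to 50 after the start, for 900 starts of 694 protein-coding genes in the first 5 Mb. The 6 shown were chosen after their values were seen, as starts at the outer edge of a gene, away from other annotated genes, that a peak covered in the 2 libraries together, in Sham only or in TAC only. Each sequence is the 250 bases before the start, in the gene's own direction, with each CG in capitals; at least 1 CG was present in 96.6% of the 900 promoters and in 95.6% of all 20084 autosomal promoters.
Gm3213: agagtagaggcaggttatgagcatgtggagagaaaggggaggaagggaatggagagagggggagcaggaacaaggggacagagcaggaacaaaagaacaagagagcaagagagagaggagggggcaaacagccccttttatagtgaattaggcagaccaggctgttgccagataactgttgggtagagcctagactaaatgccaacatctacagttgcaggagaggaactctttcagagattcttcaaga
Vmn2r29: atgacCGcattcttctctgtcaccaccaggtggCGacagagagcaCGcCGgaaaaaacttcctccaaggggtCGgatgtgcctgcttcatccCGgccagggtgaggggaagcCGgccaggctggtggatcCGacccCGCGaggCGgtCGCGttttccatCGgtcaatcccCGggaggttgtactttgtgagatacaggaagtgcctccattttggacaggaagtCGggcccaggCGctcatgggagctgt
Cacng8: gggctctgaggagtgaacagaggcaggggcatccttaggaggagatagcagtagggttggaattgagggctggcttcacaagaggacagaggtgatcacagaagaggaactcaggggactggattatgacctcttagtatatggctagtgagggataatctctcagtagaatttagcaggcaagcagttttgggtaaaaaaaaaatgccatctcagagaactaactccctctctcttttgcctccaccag
Fcer2a: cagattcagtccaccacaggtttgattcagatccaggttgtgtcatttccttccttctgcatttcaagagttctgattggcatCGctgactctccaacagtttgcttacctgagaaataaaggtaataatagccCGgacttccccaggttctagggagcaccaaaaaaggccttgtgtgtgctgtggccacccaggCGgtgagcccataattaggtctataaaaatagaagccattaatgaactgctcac
Rnaset2b: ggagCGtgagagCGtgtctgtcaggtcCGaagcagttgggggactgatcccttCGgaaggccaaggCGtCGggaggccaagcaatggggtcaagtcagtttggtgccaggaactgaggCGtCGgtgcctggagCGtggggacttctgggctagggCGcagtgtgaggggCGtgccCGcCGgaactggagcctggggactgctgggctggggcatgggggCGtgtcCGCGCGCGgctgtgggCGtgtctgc
Olfr1350: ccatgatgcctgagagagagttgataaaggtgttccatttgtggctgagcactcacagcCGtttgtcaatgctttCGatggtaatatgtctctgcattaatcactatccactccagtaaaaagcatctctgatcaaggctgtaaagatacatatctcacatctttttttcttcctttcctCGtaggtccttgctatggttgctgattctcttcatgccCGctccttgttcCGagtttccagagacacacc
Gm3213, a predicted gene, lies at chr10:6362846-6363095 on the plus strand and holds 0 CG in these bases, yet all 250 bases lay inside a peak of both libraries. Vmn2r29, a vomeronasal receptor gene at chr7:7278290-7278539 on the minus strand, holds 17 CG, and 79 of its bases lay in the Sham peak and 189 in the TAC peak. Cacng8, a gamma subunit gene of calcium and AMPA receptor channels at chr7:3393792-3394041 on the plus strand, holds 0 CG, with 244 bases in a Sham peak and the nearest TAC peak 2.68 kb away. Peaks thus covered windows of 250 bases without a CG as well as CG-rich ones. Over the 300 bases of the promoter, Gm3213 holds 0 CG and Cacng8 2. The peaks run past these windows, and the CG of whole peaks were not counted. Fcer2a, the low-affinity IgE receptor gene at chr8:3694175-3694424 on the minus strand, holds 3 CG, with 195 bases in a Sham peak. The nearest TAC peak to Fcer2a began only 12 bp away and overlapped that Sham peak. A promoter covered in Sham alone can thus lie under a Sham peak that TAC shares. Rnaset2b, a ribonuclease gene at chr17:6978610-6978859 on the plus strand, holds 19 CG, with 109 bases in a TAC peak and the nearest Sham peak 78.2 kb away. Rnaset2b has a close copy, Rnaset2a, so reads could be split between the copies. Olfr1350, an olfactory receptor gene at chr7:6569743-6569992 on the plus strand, holds 5 CG, with 51 bases in a TAC peak and the nearest Sham peak 3.03 kb away.

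The first 5 Mb were poorer in peaks than the rest of the same chromosomes in both libraries, and the TAC excess there was slightly larger. Sham had 45.2 peaks per Mb against 56.3 beyond 8 Mb, and TAC had 56.2 against 66.7. Density was lower next to the centromere on 15 of 19 autosomes in Sham and on 15 in TAC. The TAC to Sham ratio was 1.24 (1.19 to 1.29) in the first 5 Mb and 1.18 (1.18 to 1.19) in the rest, and the first divided by the second gave 1.05 (1.01 to 1.09). At a nearly equal threshold scaled for depth this relative ratio was 1.04, and with the TAC list shortened to the Sham number 1.03. No interval was computed for these values, so whether they exceed 1 by more than counting error was not tested. At the other end of the same chromosomes, the last 5 Mb held more peaks, 6773 in Sham and 7481 in TAC, and a lower ratio of 1.10 (1.07 to 1.14). Just inside the bound, from 7.9 to 8.0 Mb, there were 80 Sham and 89 TAC peaks, and just outside it, from 8.0 to 8.1 Mb, 80 and 94.

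**Figure D1:**
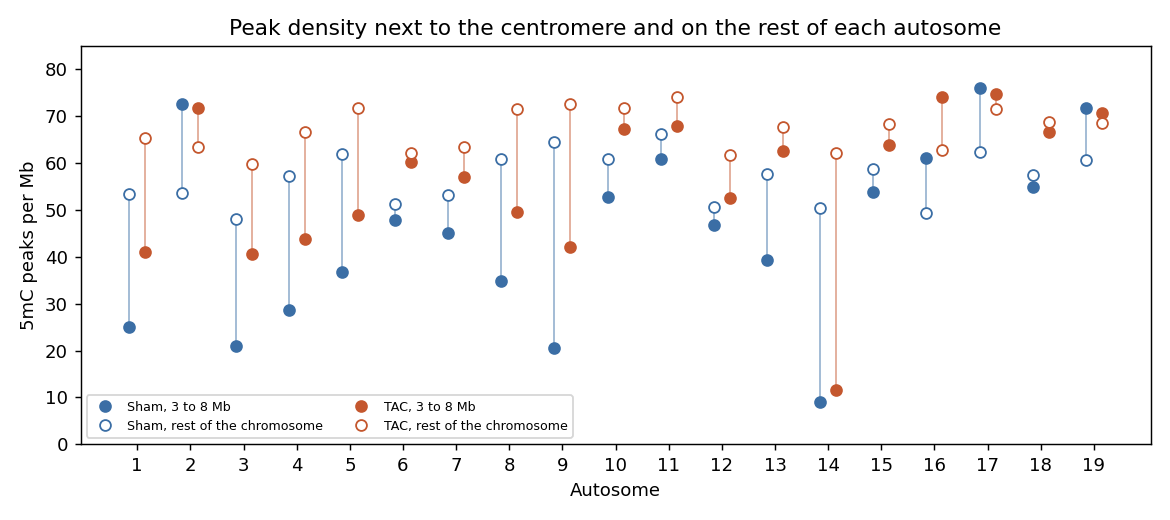
Peaks per Mb (y axis) on each autosome (x axis), with filled points for 3 to 8 Mb, open points for the rest of the chromosome, blue for Sham and orange for TAC (1 library each). On chr14 both filled points lie far below all others, at 9.0 and 11.6 peaks per Mb, while on chr2, chr16, chr17 and chr19 the filled points lie above the open ones in both libraries.

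The first 5 Mb differed from chromosome to chromosome about as much as other stretches of that length. The TAC to Sham ratio of the first 5 Mb ran from 0.983 on chr19 to 2.04 on chr9, with an SD over the 19 autosomes of 0.297, whereas in the rest it ran from 1.12 to 1.27 with an SD of 0.0409. The rest of a chromosome is far longer, so regional differences and counting error average out there. Over the 453 windows of 5 Mb that follow the first on the autosomes, the ratio ran from 0.896 to 2.28 with an SD of 0.288, so the spread between first windows was near that of the others. TAC had more peaks than Sham on 16 autosomes and fewer on 3, and the ratio was above that of the rest on 13.

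Chr9 had 103 Sham and 210 TAC peaks, a ratio 1.81 times that of its rest (1.42 to 2.32). Chr3 had 105 and 203 peaks, 1.55 times its rest (1.22 to 1.99). Chr13 had 197 and 313, or 1.35 times its rest (1.12 to 1.63). On these chromosomes the TAC excess was larger than in the rest by more than counting error. Chr1 (125 and 205 peaks) and chr4 (143 and 219) stood at 1.34 (1.07 to 1.69) and 1.32 (1.06 to 1.64) times their rest. In the other direction, chr2 had 363 and 359 peaks, 0.835 times its rest (0.718 to 0.972), and chr17 had 380 and 374, 0.858 times its rest (0.738 to 0.996). The interval thus lay above 1 on 5 autosomes, below 1 on 2 and held 1 on 12, with no adjustment for reading 19 intervals.

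**Figure D2:**
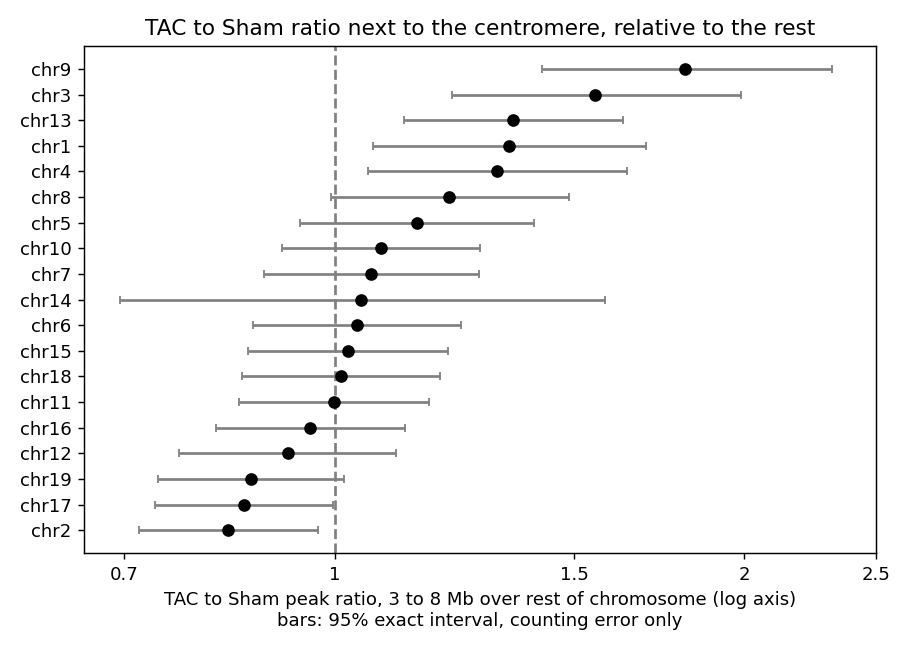
TAC to Sham ratio of peak number at 3 to 8 Mb divided by that of the rest of the chromosome (x axis, log scale) for each autosome (y axis); bars are exact 95% intervals for counting error. Chr9 lies farthest to the right at 1.81 and chr2 farthest to the left at 0.835, and the bar of chr14 is the longest because it had only 45 Sham and 58 TAC peaks.

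Among the remaining autosomes, chr5 had 184 Sham and 245 TAC peaks, chr6 had 239 and 301, chr7 had 225 and 285, and chr8 had 174 and 248. Chr10 had 264 and 336, chr11 had 304 and 340, chr12 had 234 and 263, and chr15 had 269 and 319. Chr16 had 305 and 371, chr18 had 275 and 333, and chr19 had 359 and 353. Their ratios relative to the rest of the chromosome lay between 0.868 on chr19 and 1.21 on chr8, each with an interval that held 1. At a nearly equal threshold after scaling for depth, the ratios fell to 1.12 (1.08 to 1.17) next to the centromere and 1.08 in the rest, with chr9 at 1.86, chr3 at 1.79 and chr19 at 0.872. The ratio was then above that of the rest on 11 autosomes.

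Each chromosome was also divided into consecutive windows of 5 Mb, 472 in all, to see where its first window stood. On chr9 the first window had the fewest peaks in both libraries, the highest ratio and the lowest share of shared TAC peaks of 24 windows. On chr14 it also had the fewest peaks in both libraries of 24 windows, but its ratio of 1.29 was close to the median window at 1.27. On chr3 the first window ranked 3 of 31 in ratio. Across autosomes the ratio of the first window was above the chromosome's median window on 12 of 19, so a high ratio was not general to the centromeric end.

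The peaks were not evenly spread within the first 5 Mb. Peak numbers over the 19 autosomes were 833 Sham and 970 TAC from 3 to 4 Mb, 955 and 1140 from 4 to 5 Mb, and 940 and 1125 from 5 to 6 Mb, with ratios of 1.16, 1.19 and 1.20. From 6 to 7 Mb they were 797 and 1102, a ratio of 1.38 (1.26 to 1.52), and from 7 to 8 Mb 768 and 998, a ratio of 1.30 (1.18 to 1.43). The ratio was thus higher from 6 to 8 Mb than from 3 to 6 Mb. From 8 to 9 Mb it was again 1.17 (1.08 to 1.28), and between 8 and 13 Mb it ranged from 1.17 to 1.30. Limited to 3 to 6 Mb, the ratio relative to the rest was 0.9997, so the larger TAC excess of the first 5 Mb lay in its outer 2 Mb. The first 0.1 Mb held 28 Sham and 35 TAC peaks and the next 0.1 Mb 62 and 77. Of these, 11 Sham peaks (17.7%, 9.20 to 29.5) and 16 TAC peaks (20.8%, 12.4 to 31.5) stood in the first 10% of their lists, where the bins of 0.1 Mb from 3 to 4 Mb ranged from 6.90% to 17.7% in Sham and from 6.54% to 20.8% in TAC. Of those peaks 4 in Sham and 4 in TAC lay on chr11, and without chr11 the shares were 12.7% and 16.7%.

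**Figure D3:**
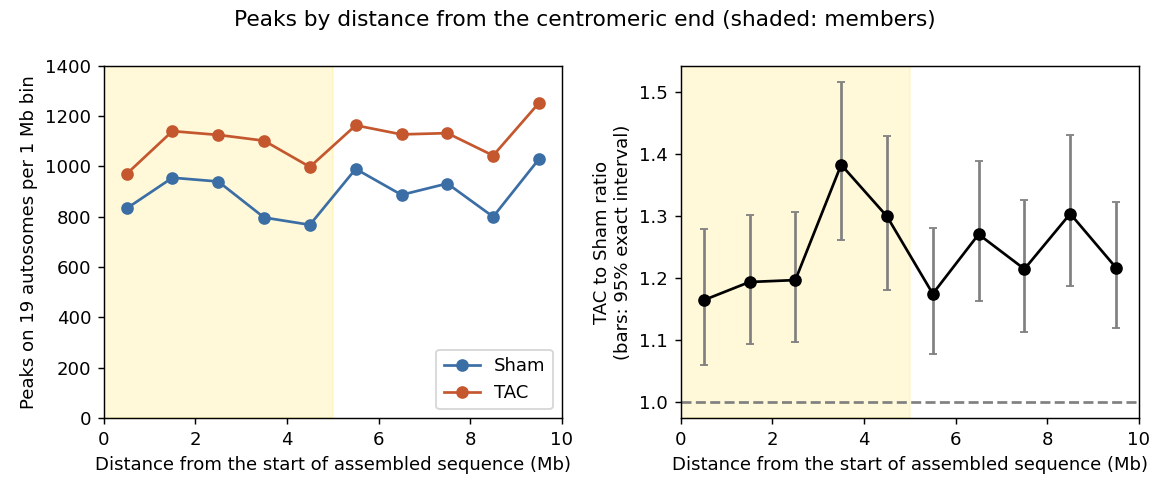
Left, peaks on the 19 autosomes per 1 Mb bin (y axis) by distance from the start of assembled sequence (x axis, Mb), blue for Sham and orange for TAC; right, TAC to Sham ratio per bin with exact 95% intervals for counting error, the first 5 Mb shaded in both. The ratio is highest in the fourth bin, at 1.38, where Sham falls to 797 peaks and TAC stays at 1102.

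By windows of 1 Mb, TAC had more peaks than Sham in 76 of 95, fewer in 14 and the same number in 5. Those with more were 80.0%, near the 80.7% of all 2394 autosomal windows. Of 93 windows with at least 10 peaks, 32 (34.4%) had at least 1.5 times as many TAC as Sham peaks, against 32.5% of all such autosomal windows, so this share was near the background. The window with the largest ratio among those on chr3 was 4 to 5 Mb, which holds no protein-coding gene and had 12 Sham and 39 TAC peaks. On chr9, 5 to 6 Mb had 17 and 49 peaks. On chr17, 7 to 8 Mb had fewer TAC peaks, with 95 and 79, but the interval of its ratio held 1 (0.832, 0.609 to 1.13). Of the 95 windows, 27 had an interval above 1 and 0 below 1, with no adjustment for their number. The same counts were not made for all autosomal windows.

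Gene density moved with the ratio in the first 5 Mb as it did elsewhere. In windows with no protein-coding gene the ratio was 1.60 (1.38 to 1.84), with 1 to 2 genes 1.56 (1.38 to 1.76), with 3 to 5 genes 1.34 (1.24 to 1.45) and with 6 to 10 genes 1.10 (1.01 to 1.19). The same classes beyond 8 Mb gave 1.76, 1.40, 1.20 and 1.11, so gene-poor windows had the larger TAC excess in both places. With 11 to 20 genes the ratio was 1.16 against 1.04, and with 21 or more 1.05 against 1.08. Across the 19 autosomes the ratio of the first 5 Mb and its number of protein-coding genes had a Spearman rho of -0.51 and a Pearson r of -0.43, given as a description, since the points share the same pair of libraries. At like gene density the number of peaks was lower too: relative to windows of like gene density beyond 8 Mb, the first 5 Mb held 0.778 times as many Sham and 0.827 times as many TAC peaks, and 0.825 and 0.870 times without chr14. This did not hold for every class: windows with no gene had more peaks next to the centromere, 31.9 Sham and 50.9 TAC per window against 26.2 and 46.1, and windows with 21 or more genes had about as many, 69.1 and 72.7 against 68.2 and 73.4.

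**Figure D4:**
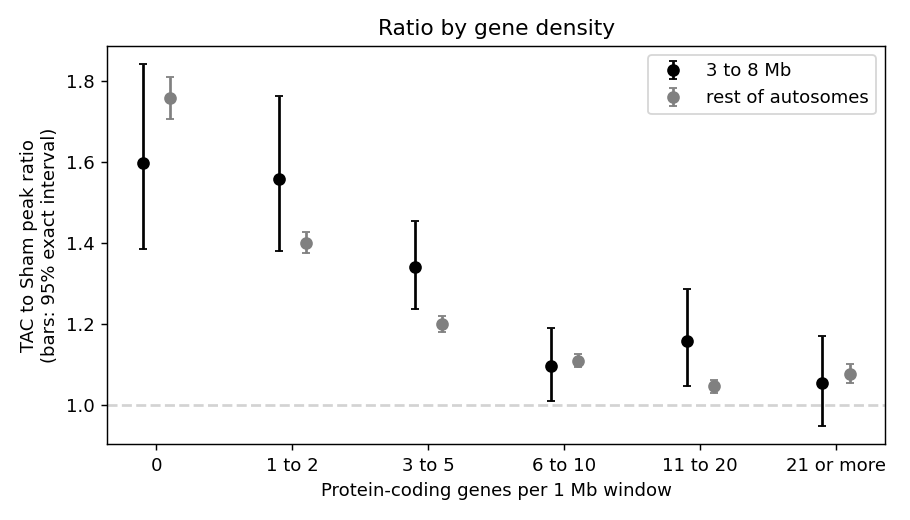
TAC to Sham ratio of peak number (y axis) in 1 Mb windows grouped by their number of protein-coding genes (x axis), black for 3 to 8 Mb and grey for the rest of the autosomes, with exact 95% intervals for counting error. Both sets fall from windows without genes (1.60 and 1.76) to windows with 6 to 10 genes (1.10 and 1.11).

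Chr14 was the exception among gene-rich ends. Its first 5 Mb overlap 80 protein-coding genes, more than on any autosome but chr7, chr11 and chr19, and held 45 Sham and 58 TAC peaks. Of these genes 70 (87.5%) had no peak in either library, against 36.5% of the 869 genes of all first 5 Mb, and 71 of the 80 carry symbols of predicted genes (Gm and a number). Near-identical gene copies can share reads, and what part this had in the low count was not tested. From 3 to 7 Mb the windows of chr14 had between 1 and 7 Sham and between 3 and 10 TAC peaks, and 7 to 8 Mb alone had 30 and 29. The longest stretch of chr14 without a Sham peak midpoint was 953.9 kb and without a TAC one 499.6 kb.

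Pooled over the autosomes, sharing was lower in TAC next to the centromere and about the same in Sham. A peak is called shared where at least 1 bp of it lies in a peak of the opposite library. Of Sham peaks 65.6% (64.2 to 67.0) were shared, against 66.2% in the rest, and of TAC peaks 52.9% (51.5 to 54.2) against 56.0%. The share was below that of the rest on 12 of 19 autosomes in Sham and on 11 in TAC, so the TAC drop was not general. In Sham 1476 peaks (34.4%) had no TAC counterpart, close to the 33.9% of the whole list, and in TAC 2515 peaks (47.1%) had no Sham counterpart, above the 44.4% of the whole list. The ratio of unshared peaks was 1.70 (1.60 to 1.82) next to the centromere and 1.54 (1.52 to 1.56) in the rest.

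The lower sharing of TAC peaks followed the chromosomes with the high ratios, which share the same counts. Of TAC peaks 30.5% were shared on chr9, 33.5% on chr3 and 38.0% on chr1, where the rest of those chromosomes had 58.7%, 52.7% and 54.3%. Chr17 (66.6%) and chr2 (63.0%) had the highest shares and exceeded their rest at 58.6% and 54.9%. In Sham the share ran from 57.3% on chr12 to 75.1% on chr13. Chr13 therefore had the largest share of its Sham peaks repeated in TAC while only 47.6% of its TAC peaks were in Sham. By 1 Mb bins, the TAC share was 55.4%, 56.0% and 55.4% from 3 to 6 Mb, then 48.7% and 48.6% to 8 Mb, and 57.1% from 8 to 9 Mb, so the drop sat in the same 2 Mb as the higher ratio.

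Most peaks had the smallest usual width, and width hardly differed from the rest. The median was 501 bp in both libraries and both regions, which is the peak size of 500 bp in the headers plus 1. That width was held by 61.6% (60.1 to 63.1) of Sham peaks against 59.4% in the rest, and by 62.5% (61.2 to 63.8) of TAC peaks against 60.3%. The mean was 652 bp in Sham and 633 bp in TAC, within 2 bp of the rest at 653 and 635 bp. Shared peaks were the wider, with means of 700.2 bp in Sham and 705 bp in TAC, and unshared peaks had 560 and 552 bp. Peaks over 1000 bp numbered 382 in Sham (8.90%) and 414 in TAC (7.76%). On the chromosomes, mean width in Sham ran from 558 bp on chr9 to 731 bp on chr7, and in TAC from 580 bp on chr9 to 686 bp on chr17.

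Taken over all autosomes, row order placed the centromeric peaks slightly later in their lists than the rest. The score that the authors deposited is 1 for every peak, but rows fall into blocks that are sorted by position within a block, and counting 1 tag fewer per block, down to 8 in the last, recovers 99.3% of the header's total of tags inside peaks, so early rows are read here as peaks with more tags. Under this reading 3.25% of the peaks in each library fall below the tag threshold of the headers, so the inferred tag numbers are not exact. The median position was at 51.9% of the Sham list against 49.7% for the rest, and at 52.1% of the TAC list against 49.5%. By chromosome, the median was later than in the rest on 9 of 19 autosomes in Sham and on 12 in TAC. The first 10% of the list held 436 Sham (10.2%) and 540 TAC peaks (10.1%), and the last 10% held 453 (10.6%) and 563 (10.6%). Chromosomes differed more: in Sham the median was latest on chr4, chr3 and chr1 and earliest on chr16. In TAC it was latest on chr3 (66.6%) and chr1 (61.6%) and earliest on chr2 (40.6%) and chr17 (41.4%). Ranked within their own chromosome, the median of Sham peaks next to the centromere differed from the rest by -0.0901 percentage points and that of TAC peaks by 0.983. Because blocks are sorted by position, this ranking puts peaks next to the centromere ahead of others with as many inferred tags. It therefore cannot show whether the later position of the first 5 Mb held within chromosomes. In Sham the shifts went both ways: the median was later than in the rest on chr1 (66.1% against 48.5%), chr3 (67.1% against 52.8%) and chr4 (67.4% against 49.1%) and earlier on chr16 (41.9% against 51.7%). At the last 5 Mb of the chromosomes, in contrast, 14.4% of Sham and 15.1% of TAC peaks stood in the first 10%.

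Sharing fell with row order in both libraries as it did elsewhere. In the first 10% of the list 96.8% of Sham and 98.5% of TAC peaks were shared, and in the last 10% 36.9% and 20.96%. The rest of the chromosomes had 98.5% and 98.4% in the first and 39.5% and 23.1% in the last. In the next 10% of the TAC list the share was 85.2% (81.7 to 88.2) next to the centromere against 89.99% in the rest, the widest gap of the 10 TAC classes.

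**Figure D5:**
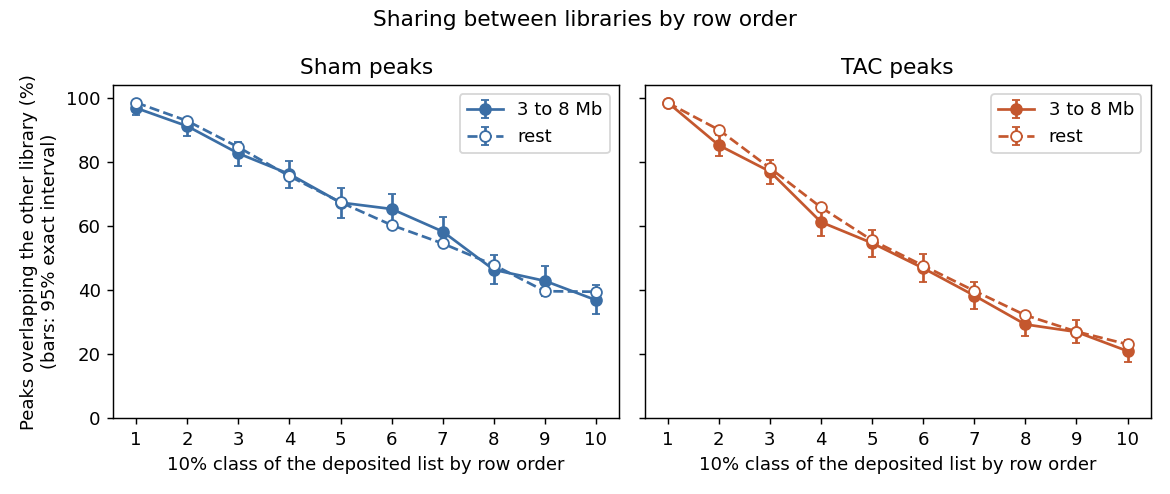
Share of peaks that overlap a peak of the other library (y axis, %) by 10% class of the deposited list in row order (x axis), with Sham on the left and TAC on the right, filled points and solid lines for 3 to 8 Mb, open points and dashed lines for the rest, and exact 95% intervals for counting error. Both libraries start at 96.8% or more and fall to 36.9% in Sham and 20.96% in TAC.

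The widest peak of the first 5 Mb was the same in both libraries. It lay at chr12:4043240-4049238 in Sham (5999 bp, row 58) and chr12:4043096-4049202 in TAC (6107 bp, row 104), 7.14 kb in Sham from Efr3b, which encodes a membrane anchor of a phosphatidylinositol 4-kinase. The next widest lay at chr11:3100204-3106037 in Sham (5834 bp, row 4) and chr11:3100202-3105117 in TAC (4916 bp, row 8), 100.2 kb into the assembled sequence and the first peak of chr11. Both pairs are among the first of their lists and show that these early and wide peaks were common to Sham and TAC.

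The 100 kb that follow on chr11 held the earliest unshared Sham peaks of the first 5 Mb. Within Sfi1, which encodes a centrosome protein, Sham had peaks at chr11:3193081-3193581 (row 18), chr11:3150256-3150966 (row 44) and chr11:3155666-3156166 (row 46), none with a TAC peak on it. TAC had a peak there at chr11:3180086-3180711 (row 656) that Sham lacked. At chr11:3118684-3122232 TAC had a peak of 3549 bp (row 2141), where Sham had 2 peaks of 501 bp at rows 64030 and 44017. These 3 Sham peaks are narrow and yet among the first 46 rows of 135886. They had 350, 338 and 337 inferred tags, where the median Sham peak of the first 5 Mb had 18. Per the TAC header, 2297 putative peaks were removed by input and 210 as too clonal, with no positions given. Whether TAC peaks at these places were among those removed was not tested, nor was how uniquely reads map there.

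Other peaks that led their lists were shared. At chr4:3090234-3091213 (Sham row 47) TAC had chr4:3089358-3091095 (row 20). Within Fam71e2 the peak at chr7:4755275-4756521 (row 63) met a TAC peak at row 35, and within Clcn4, a chloride and proton exchanger gene, the peak at chr7:7296622-7298226 (row 121) met one at row 102. On chr3, where TAC peaks were many, the earliest named peak was also shared: chr3:3195839-3198658 in Sham (2820 bp, row 293) and chr3:3195877-3198697 in TAC (2821 bp, row 53). The 3 Sham and 3 TAC peaks in the first 0.1 Mb of chr9 likewise overlapped each other, so the low sharing of chr9 did not begin at its end.

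Some wide or early peaks were found in 1 library or differed in width. In Rps6ka2, a ribosomal S6 kinase gene on chr17, the Sham peak chr17:7138930-7141477 (2548 bp, row 1367) had no TAC peak on it, while the neighbouring chr17:7154506-7157344 (row 79) met a TAC peak at row 199. In TAC, chr12:4056963-4058492 (1530 bp, row 641), 18.6 kb from Efr3b, had no Sham counterpart. In the predicted gene Gm1604a, TAC had chr17:7906688-7910482 (3795 bp, row 677), where Sham had 3 separate peaks of 501, 1055 and 501 bp. In that last case 1 wide TAC peak counts as 1 and the Sham peaks on the same stretch as 3.

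Peaks outside genes made up most of the TAC excess. Inside genes Sham had 2369 and TAC 2646 peaks, and outside them 1924 and 2689. In protein-coding and other annotated genes lay 55.2% of Sham and 49.6% of TAC peaks, against 56.4% and 51.4% in the rest. The ratio inside genes was 1.12 (1.06 to 1.18) and outside 1.40 (1.32 to 1.48), and beyond 8 Mb it was 1.08 and 1.32. Among unshared peaks 56.6% of Sham and 44.0% of TAC peaks lay in genes, against 59.3% and 46.8% in the rest.

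In the 869 protein-coding genes that overlap the first 5 Mb 2042 peaks of Sham and 2256 of TAC had their midpoint, which gives a ratio of 1.10 (1.04 to 1.17), against 1.07 in all other autosomal genes. TAC had more peaks in 229 genes (26.4%) and fewer in 151 (17.4%), against 25.9% and 22% of all 20661 autosomal protein-coding genes, so the share with more was near the background. The numbers were equal in 172, and 317 (36.5%) had no peak, against 33.9% of other genes. Long genes held the most, since counts grow with length. Rbfox1, a splicing regulator of neurons and heart muscle that spans 1528 kb on chr16, led with 133 Sham and 174 TAC peaks. TAC thus gave 56.7% of its peaks (50.9 to 62.3), against 54.4% of all peaks. The 12 genes with most peaks held 513 and 565 in all, a ratio of 1.10, and 11.9% of the Sham peaks of the first 5 Mb.

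These long genes did not move one way. More TAC than Sham peaks were counted in Cdk14, a cyclin-dependent kinase (40 and 44), in Celf2, an RNA-binding splicing regulator (36 and 47), in Syne1, which encodes the nuclear envelope protein nesprin-1 (27 and 34), and in Esr1, the estrogen receptor alpha gene (22 and 32). Fewer were counted in Frmd4a, a scaffold protein gene (50 Sham and 47 TAC), in the calcium and calmodulin-dependent kinase gene Camk1d (49 and 40), in Klhl29 (36 and 31), in the palmitoyltransferase gene Zdhhc14 (34 and 30), in Rps6ka2 (36 and 27) and in Arid1b, a subunit of the BAF chromatin remodelling complex (28 and 25). The pair with the largest drop, Camk1d and Rps6ka2, lies on chr2 and chr17, the chromosomes with the lowest ratios relative to their rest. The peaks of these genes are part of those chromosome counts. Celf2, with more TAC peaks, also lies on chr2. For Rps6ka2 the TAC share of 42.9% had an interval of 30.5 to 56.0, which holds the 54.4% of all peaks.

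Of 218 genes with at least 5 peaks, 13 (5.96%) had at least 3 times as many TAC as Sham peaks, against 3.24% of all 6490 such autosomal genes, and 3 (1.38%) had at least 3 times as many Sham peaks, against 1.65%. The 13 held 17 Sham and 69 TAC peaks. Gria4, an AMPA-type glutamate receptor subunit gene on chr9, had 2 Sham and 11 TAC peaks. It was named for its ratio, and the first 5 Mb of chr9 as a whole had 210 TAC peaks beside 103 in Sham. Hnf4g, a nuclear receptor gene on chr3, had 2 and 7, Lyn, a Src family kinase gene on chr4, had 2 and 6, and Zc2hc1a on chr3 had 2 and 6. Akr1c20 (an aldo-keto reductase), Rdh13 (a retinol dehydrogenase) and Sdhaf3 (an assembly factor of succinate dehydrogenase) had 1 Sham and 5 TAC peaks each. Asxl2, Ighmbp2, Pkia, Rgs17, Wac and the imprinted zinc finger gene Zim1 had 1 and 4 each. These counts are small, and 3 of the 13 genes lie on chr3, where TAC peaks were many in general. Higher in Sham were Cluap1, a cilium gene (5 Sham and 1 TAC), Net1, a RhoA exchange factor (4 and 1), and Pitrm1, a mitochondrial peptidase (6 and 2). Rdh13, Ighmbp2, Cluap1 and Pitrm1 overlap another protein-coding gene, so their peaks cannot be assigned to 1 gene alone.

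Of 25 genes of heart muscle and metabolism in the first 5 Mb, TAC had more peaks in 11, fewer in 5 and as many in 6, and 3 had none. The list's 158 peaks in Sham and 175 in TAC gave a ratio of 1.11 (0.888 to 1.38), beside 1.10 for all genes there. Insr, the insulin receptor gene on chr8, differed most, with 8 peaks in Sham and 16 in TAC, where TAC made up 66.7% (44.7 to 84.4). Dnmt3a, a de novo DNA methyltransferase, had 7 Sham and 5 TAC peaks, and Camk2b, a calcium and calmodulin-dependent kinase II subunit, had 14 and 12. The adenylyl cyclase genes Adcy9 and Adcy3 had 7 and 8 and 10 and 12 peaks, Svil, which encodes the membrane and actin linker supervillin, had 12 and 15, and the nuclear coactivator gene Ncoa1 had 14 and 10. The growth hormone receptor gene Ghr (11 and 11) and the leukemia inhibitory factor receptor gene Lifr (9 and 9) were equal. Pdk4, the kinase that inhibits pyruvate dehydrogenase, had 1 peak in each library, the carnitine palmitoyltransferase gene Cpt1a had 3 and 2, and the sarcalumenin gene Srl 1 and 2. Myl7, the atrial myosin light chain gene, Ogdh and Ndufv1 had none, nor had the long noncoding genes Malat1 and Neat1 on chr19. For Myl7 a peak lay 0.348 kb before the start in Sham and 0.349 kb in TAC.

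Imprinted genes sit in the first 5 Mb of chr6 and chr7, where methylation of 1 parental copy is known at control regions. Of 16 listed genes 13 were found there as protein-coding genes. They held 75 peaks in Sham and 84 in TAC (ratio 1.12, 0.811 to 1.55), with more TAC peaks in 5, fewer in 5 and equal numbers in 3. The shared promoter region of Peg3, a zinc finger gene expressed from the paternal copy, and Usp29, a deubiquitinase gene read in the other direction, lay under a peak in both libraries: chr7:6729451-6731097 in Sham and chr7:6730150-6731195 in TAC. Within Usp29 there were 22 Sham and 34 TAC peaks, and within Peg3 3 and 1. At the common start of Peg10, a gene derived from a retrotransposon, and Sgce, which encodes epsilon-sarcoglycan, Sham had a single peak at chr6:4746711-4749387 (2677 bp) and TAC had chr6:4746789-4747819 and chr6:4748951-4749451. Both imprinted starts were thus covered in Sham and TAC. Sgce had 8 Sham and 5 TAC peaks and Peg10 4 and 2.

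Vomeronasal receptor genes near the centromeres held few peaks, as such genes did elsewhere. Of 23 vomeronasal receptor genes in the first 5 Mb 21 had no peak, against 271 of 329 elsewhere on the autosomes, and the 23 held 1 Sham and 2 TAC peaks. This is 3.68 and 7.35 peaks per Mb of gene, against 13.7 and 25.3 in the 329 elsewhere. Of 10 olfactory receptor genes, 6 had no peak, against 1011 of 1094 elsewhere, and the 10 held 1 Sham and 4 TAC peaks, which is 48.1 and 192.3 per Mb against 30.4 and 31.9 but rests on few peaks. Of 23 zinc finger genes named Zfp, 17 had a peak, against 243 of 365 elsewhere, with 37 Sham and 50 TAC peaks in all, or 37.6 and 50.9 per Mb against 57.1 and 60.1. The 3 families were chosen after their values were seen, and their copies resemble each other, so reads may be split between them.

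Promoters were seldom covered, as elsewhere. Of the 900 promoters, a peak of each library covered 15 (1.67%), Sham peaks only 9 (1.00%) and TAC peaks only 13 (1.44%), against 1.91%, 1.34% and 1.59% of all autosomal promoters. Coverage was highest with 3 to 5 CG in the 300 bases, at 5.98% in Sham and 8.55% in TAC, and lowest with 21 or more, at 1.02% and 1.36%. Beyond 8 Mb coverage was highest with 6 to 10 CG, at 6.82% and 6.70%, and again lowest with 21 or more, at 1.39% and 1.78%. The median was 6 CG in promoters covered in both, 7 in Sham alone, 6 in TAC alone and 13 in those covered in neither. Chr7 gave 15 of the 37 covered promoters and holds 122 of the 869 protein-coding genes of the first 5 Mb. Its part of the 900 promoters was not counted, and the promoters of Peg3 and Usp29 lay under the same peaks.

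Covered by peaks early in both lists were Cabp2, a calcium-binding protein gene (rows 2709 and 3012), Gm3213 (rows 4151 and 3709) and Vmn2r29 (rows 3714 and 6472), of which the sequences of the last 2 stand above. Gria4, with its many TAC peaks in the gene body, had a promoter peak in each library, late in both lists at rows 102364 and 85072. In Sham alone were Cacng6, Cacng7 and Cacng8, 3 neighbouring genes of calcium channel gamma subunits on chr7, at rows 13314, 72977 and 48883. The 3 gene bodies held 6 Sham and 7 TAC peaks in all, so TAC did not lack peaks in these genes. The Sham peak at the Cacng6 start, the only 1 in that gene, overlapped a TAC peak that missed the promoter window. The starts of Cacng6 and Cacng7 are inner starts of their genes. In TAC alone were inner starts of Frmd4a (row 1411), the cytokine gene Il11 (row 109761) and Clcn4 (row 37609). The start of Efr3b was covered in Sham alone (row 575), and the nearest TAC peak began 0.655 kb from the start. That TAC peak overlapped the Sham peak, so here too the libraries shared the peak. The promoters named here were chosen after their values were seen.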

How the data were processed

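Per the submitters' processing notes, reads were placed on mm10 with BWA 0.7.4-r385, handled with Picard and called with HOMER 4.5. Per the file headers, the authors called histone-style peaks in each library against input, with at least 4-fold over input, a Poisson p of 0.0001, a size of 500 bp and 1000 bp between peaks. The Sham library had 12585289 tags and a threshold of 11, the TAC library 14658177 and 12. The authors deposited start and end of each peak and a score of 1 for every peak, which gives no measured signal; tag numbers were inferred from row order.

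Peaks were chosen by midpoint, counted and compared with Python 3.11.15, pandas 2.3.3 and scipy 1.17.1. Exact Clopper-Pearson intervals and exact conditional odds ratios were computed, with code tested on simulated data. The threshold scaled for depth kept Sham peaks from 11 and TAC peaks from 13 tags on, as inferred from row order. Gene positions and promoters came from RefSeq (GRCm38.p6). Named genes were the 12 with most peaks, all with at least 5 peaks and a 3-fold difference, and fixed lists; named peaks were the 10 widest, the 10 first in order and the 5 first unshared ones in each library, from which the text takes some. The members and the lists were chosen with earlier results of these data known. The Input library was not analysed here.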

Additional observations from a re-analysis of the deposited data

How the results depend on the processing

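No paired analysis was possible because each group has 1 library. Of 93 values under other settings, 65 stayed within the counting interval, 25 left it and 3 changed sign, and in none was the cause tested. With 3 to 6 Mb only, the ratio was 1.19 and relative to the rest 0.9997, the shared TAC share 55.6% (-0.353 points from the rest), the TAC mean width 6.91 bp above the rest, and the TAC median row position 50.7%, 1.13 points after the rest. With 3 to 13 Mb, the Sham mean width was -15.5 bp from the rest. At a nearly equal threshold scaled for depth, the ratio was 1.12, the shared shares 63.6% in Sham and 56.6% in TAC, and the TAC median position 45.9%. Within the first 50% of each list, shared shares were 68.8% and 55.5%, median widths 632 and 629 bp, mean widths 9.95 and 8.12 bp above the rest, and median positions 49.4% in Sham (-0.592 points from the rest) and 50.7% in TAC (0.752). With the TAC list shortened to the Sham number, the ratio was 1.03. Overlaps of at least 50% of both peaks gave shared shares of 60.2% and 48.5%. Ranked within the chromosome, the Sham median was 49.9%, at -0.0901 points from the rest, and the TAC difference 0.983, with peaks of equal inferred tags ranked by position.

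Leaving out each autosome in turn gave a ratio of 1.22 to 1.27, or 1.03 to 1.07 relative to the rest. The shared TAC share was then 51.8% to 53.8%. All 266 values lay within the intervals of the full data, with which they share most of their peaks, so this is a weak check. The median widths among them stayed at 501 bp. Whether the relative ratio exceeds 1 by more than counting error without each autosome was not tested. Depth limits what can be told apart: a peak missing from a list may lie just under its threshold, and with 1 library per group no difference between Sham and TAC can be told apart from a difference between 2 libraries of the same group. Satellite sequence was not analysed here.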
